A study of Mus musculus with 10 samples.

Results

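Of 246799 merged regions of open chromatin, 2529 were called as peaks in both libraries of cells given Gdf11 and in none of the 8 libraries of cells grown without it. They were selected on these peak calls alone, by merging the deposited peak lists of the 10 libraries and keeping the regions that overlapped a peak in each Gdf11 library and no peak in any other. ATAC-seq uses a transposase that cuts accessible DNA, so that reads pile up over open chromatin. The cells were wild-type ES-Bruce4 mouse embryonic stem cells of the C57BL/6 strain, differentiated toward neuromesodermal progenitors, the caudal cells that give rise to spinal cord and paraxial mesoderm. All 5 groups shared this genotype and a medium with 10 ng/ml human bFgf, to which 5 µM CHIR99021, an inhibitor of GSK3 that activates Wnt signalling, was added from day 2. They were collected on day 2, on day 3, on day 6, on day 7 without further treatment, and on day 7 after 50 ng/ml human Gdf11 given on day 6 for 24 h, with 2 libraries in each group. The line is a single one, and its stem cells had been kept on embryonic fibroblasts that were removed before differentiation. Nothing in the labels says that replicate libraries were grown separately, and p-values then measure only the spread between these libraries, which may be technical.

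Gdf11 is a secreted ligand of the TGF-beta family that binds activin receptors and activates the transcription factors Smad2 and Smad3, which act with Smad4. In the embryo it times the passage from trunk to tail, when posterior Hox genes come on and trunk programmes end. Smad complexes bind short CAGAC-type elements and often share their sites with other factors, among them the AP-1 factors of the Jun and Fos families, which recognise TGANTCA-type elements.

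Promoter sequence from RefSeq (GRCm38.p6) was at hand for a small share of the regions, because 28 of the 2529 overlapped a window from 250 bases before to 50 bases after an annotated start. The 28 regions touched 29 such windows. Upstream stretches of 4 of them are shown to let the letters be read beside the accessibility, with the Smad core CAGAC (or GTCTG, its other strand) and the AP-1 site TGANTCA in capitals. Ltbp1 was named by the rule for members of gene lists, and the others were chosen after their values were seen, as stretches of at least 200 bases inside a region with the highest Gdf11 accessibility. The stretches lie at chr4:84741225-84741474 (plus strand, upstream of the long noncoding RNA Gm12415), chr17:75178531-75178780 (plus strand, upstream of Ltbp1), chr13:60897448-60897678 (minus strand, upstream of Ctla2b) and chr7:98415616-98415838 (minus strand, upstream of the long noncoding RNA Gm44507).
Gm12415: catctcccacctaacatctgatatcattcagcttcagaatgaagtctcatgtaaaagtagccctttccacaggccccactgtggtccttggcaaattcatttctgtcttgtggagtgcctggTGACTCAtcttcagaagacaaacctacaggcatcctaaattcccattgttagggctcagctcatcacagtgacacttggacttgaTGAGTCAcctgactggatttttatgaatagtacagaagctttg
Ltbp1: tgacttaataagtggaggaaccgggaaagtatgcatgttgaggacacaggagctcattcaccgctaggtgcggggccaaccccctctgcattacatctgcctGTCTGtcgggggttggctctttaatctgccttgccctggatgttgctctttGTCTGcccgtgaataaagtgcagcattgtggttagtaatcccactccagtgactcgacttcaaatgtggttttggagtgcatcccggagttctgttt
Ctla2b: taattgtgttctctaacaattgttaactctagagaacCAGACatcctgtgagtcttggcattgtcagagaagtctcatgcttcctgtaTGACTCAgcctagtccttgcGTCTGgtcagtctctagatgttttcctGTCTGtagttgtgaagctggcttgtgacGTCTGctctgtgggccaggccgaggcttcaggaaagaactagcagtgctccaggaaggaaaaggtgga
Gm44507: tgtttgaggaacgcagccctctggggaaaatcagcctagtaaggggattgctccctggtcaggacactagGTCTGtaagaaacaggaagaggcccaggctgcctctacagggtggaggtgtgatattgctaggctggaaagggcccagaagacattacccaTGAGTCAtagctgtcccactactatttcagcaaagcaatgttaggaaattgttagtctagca

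The Gm12415 stretch held 2 AP-1 sites and no Smad core, and its region stood at 6.86 and 6.89 CPM (counts per 1000000 counts of the library over all regions) with Gdf11 against 1.73 and 1.73 on untreated day 7. The Ltbp1 stretch held 2 Smad cores and no AP-1 site. Ltbp1 encodes a matrix protein that stores latent TGF-beta, and its region stood at 4.12 and 5.28 CPM with Gdf11 against 1.38 and 1.47 CPM on untreated day 7. The Ctla2b stretch held 4 Smad cores and 1 AP-1 site, and that region went from 0.691 and 0 CPM on untreated day 7 to 2.84 and 4.09 CPM. The Gm44507 stretch held 1 of each, with 0.432 and 0.933 CPM on untreated day 7 and 2.65 and 2.58 CPM with Gdf11. In each of these 4 regions both Gdf11 libraries lay above all 8 others.

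Over the 29 windows, both strands were searched for short motifs whose letters may overlap each other. TGANTCA occurred in 8 windows (27.6%), against 7.79% of all promoter windows of the same length, 18.9% of the 37 windows under regions called only on day 3, 6.92% of those called only on day 2 and 7.69% of those called only on untreated day 7. CATTGT, the core bound by Sox factors, occurred in 9 windows (31.0%), against 12.4% of all windows and 26.9% of the 26 windows under regions called only on untreated day 7. CAGAC occurred in 15 windows (51.7%), close to the 49.5% of all windows and below the 76.9% under regions called only on untreated day 7, and its palindrome GTCTAGAC in none (0.215% of all windows). TTTATNG, bound by Cdx and posterior Hox proteins, occurred in 2 windows (6.9%; 10.8% of all). The T-box core GGTGTGA was found in 3 windows (10.3%; 3.95% of all) and the E-box CANNTG in 26 (89.7%; 72.3% of all). Under regions called only in another group, the T-box core was found in 0% to 8.11% of windows and the E-box in 80.0% to 81.8%. The element AGATAA of GATA factors was found in 3 (10.3%; 11.2% of all), and the forkhead core TGTTTAC in none (3.66% of all). These counts were not tested and describe 28 regions near starts, and the sequence of the remaining regions was not used here.

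The authors' deposited tables of known motifs cover a wider set of regions for day 7 against day 7 with Gdf11, but the sources used here do not state how its target regions were chosen or which group "up" refers to. In the authors' deposited table for "up" regions, with about 523 targets, the first motif was Jun-AP1, in 28.1% of targets and 4.86% of background. The same authors' deposited table gave Smad4 the rank 11, in 58.1% of targets and 37.66% of background, and Smad2 the rank 13, in 55.6% and 36.53%. In the authors' deposited table for "down" regions, with about 2902 targets, the first motif was Sox2, in 51.8% of targets and 22.64% of background.

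The regions were faint on day 2, less faint on day 6 though not called as peaks, and stood highest with Gdf11. Their median level was 0.218 and 0.262 CPM on day 2, 0.534 and 0.42 on day 3, 0.73 and 0.675 on day 6, 0.691 and 0.667 on untreated day 7, and 2.47 and 2.37 with Gdf11. Over all 246799 regions the medians ran from 0.918 to 1.28 CPM, the 2 Gdf11 libraries included at 1.28 and 1.18. The 2529 regions were therefore below the typical region in all 8 libraries without Gdf11 and above it in the Gdf11 libraries. Together they took 0.0926% and 0.1% of counts on day 2, 0.19% and 0.185% on untreated day 7 and 0.709% and 0.698% with Gdf11. Because the samples are bulk, fewer cells with an open region and less opening per cell cannot be told apart.

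**Figure D1:**
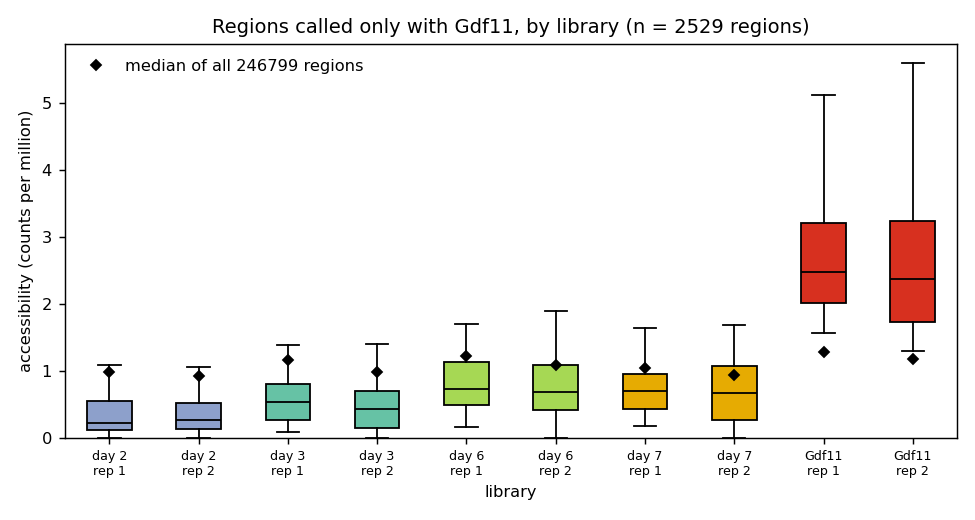
Accessibility of the 2529 regions in each library, in CPM on a linear axis; boxes span the 25th to 75th percentile with the median as a line, whiskers reach the 5th and 95th percentile, and diamonds give the median of all 246799 regions. The medians rise from 0.218 on day 2 to 0.73 on day 6 and stand at 2.47 and 2.37 with Gdf11.

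By counts the regions were seldom empty without Gdf11: 54 and 192 had no count in the 2 untreated day 7 libraries, 14 had none in either, and none lacked counts in all 8 libraries without Gdf11. The median count per region was 8 and 5 on untreated day 7 and 27 and 22 with Gdf11. In 2432 regions (96.2%) both Gdf11 values lay above all 8 other libraries, beside 7.13% of all merged regions, and in 97 they overlapped. The mean with Gdf11 was at least 2 times that of untreated day 7 in 2339 regions (92.5%) and at least 4 times in 1178 (46.6%), with a median ratio of 3.83. The rule used this contrast, so these values describe what it picked. The 2 Gdf11 libraries lay within 2 times of each other in 2491 regions (98.5%). The rule asked for a peak in both, so this too describes what it picked.

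**Figure D2:**
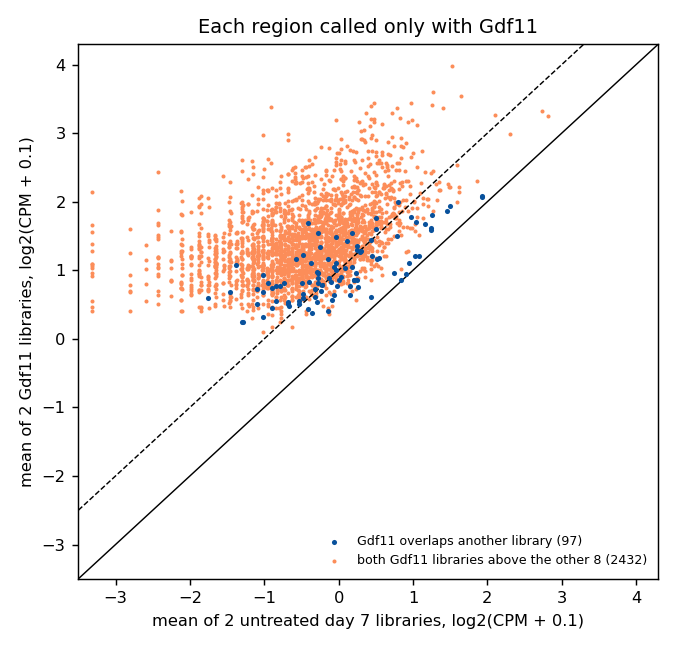
Each point is 1 of the 2529 regions, by its mean over the 2 untreated day 7 libraries and over the 2 Gdf11 libraries, both as log2(CPM + 0.1); the solid line marks equality and the dashed line a difference of 1. Orange points are the 2432 regions with both Gdf11 libraries above the other 8, and blue points are the 97 in which they overlapped, many of them nearer to the line of equality.

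The counts of edgeR calls in this contrast are given as a description for the same reason, and nothing is read from them, since the rule set the direction beforehand. With the quasi-likelihood p against untreated day 7 adjusted over all 173175 regions tested, 525 of the 2487 tested members were higher (21.1%; 1.09% of all tested regions) and 0 were lower (2.65% of all). At an unadjusted p under 0.05, 1642 were higher and 0 lower, while DESeq2 called 84 higher and 0 lower and set no adjusted p for 2288. The remaining 42 members fell below the filter on low counts. The 525 made up 27.9% of the 1883 regions called higher in all, and 1254 of those 1883 had a peak in some library without Gdf11. For single members the log2 change and its standard error follow below, with no p. Leaving out 1 library of either group lowered the number of members called higher, and the median log2 change over the tested members ran from 1.68 to 1.78.

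As peaks the regions were weaker than the average Gdf11 peak. The −log10 q that the authors' caller gave them had medians of 5.83 and 5.94 in the 2 Gdf11 libraries, against 8.16 and 7.01 over all peaks there, and the fold enrichment had medians of 4.35 and 4.91 against 4.97 and 5.29. The range of −log10 q ran from 1.8 to 24.9 in replicate 1 and from 1.88 to 43.3 in replicate 2. Summits in the 2 libraries lay a median of 33 bp apart, against 26 bp in the other 63532 regions that both Gdf11 libraries called. At the edge of the rule, the regions near Ifne (chr4:88867994-88868206), in Sfi1 (chr11:3163820-3163985) and near Helq (chr5:100753184-100753301) were kept with 1.72 to 2.93, 1.83 to 3.57 and 1.08 to 1.37 CPM in the Gdf11 libraries. Just outside it, regions in Dst (chr1:34106761-34106971), near Btg1 (chr10:96717357-96717525) and near Gtf2f2 (chr14:76032694-76032915) had 3.34 to 3.66, 1.94 to 2.29 and 2.37 to 2.56 CPM with Gdf11. Those were dropped for a peak with a −log10 q of 1.86 in day 6 replicate 2, of 1.94 in day 7 replicate 2 and of 1.99 in day 3 replicate 1.

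Of 66061 regions called in both Gdf11 libraries, the 2529 made up 3.83%, while 32314 (48.9%) were called in all 8 other libraries too and 2044 in exactly 1 of them. To see whether the pattern of 1 replicate recurred in libraries that had not chosen it, the rule was applied to the 5 libraries of replicate 1 alone and the regions were read in replicate 2. This gave 9344 regions, of which 51.5% were highest with Gdf11 among the 5 libraries of replicate 2 (22.3% of all regions), with medians of 0.969 CPM with Gdf11 and 0.533 CPM on untreated day 7. In the reverse direction 53.6% of 24304 regions were highest with Gdf11 in replicate 1 (21.8% of all), with medians of 1.01 and 0.518 CPM. A peak was called in the second Gdf11 library in 33.4% and 22.5% of them, beside 41.0% and 34.2% of all regions. All regions include those called in every library and those that the second library's own peaks added to the merge. The chosen regions had no peak in the other libraries of their replicate. The shares of chosen and of all regions are therefore not a like comparison, and recurrence cannot be read from them.

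The 10 regions with the most accessibility in both Gdf11 libraries, all of them above the 8 other libraries without overlap, lay in or near Ppfibp2, Uspl1, Nfia, Tmem161b, Pgpep1, Ednra, Cttnbp2nl, Pknox2, Nfix and Rbm33. The strongest, chr7:107664210-107664720 in Ppfibp2, a liprin scaffold gene, had 1.96 and 0.655 CPM on day 2, 1.78 and 1.54 on day 3, 4.05 and 2.16 on day 6, 2.76 and 2.8 on untreated day 7, and 14.0 and 17.4 with Gdf11. Its highest value without Gdf11 was that of day 6 replicate 1. The log2 change against untreated day 7 was 2.34 ± 0.33 (SE, n = 2 libraries per group).

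Both nuclear factor I genes in this set, Nfia and Nfix, encode transcription factors active in neural and muscle development. The Nfia region (chr4:98108043-98108370) had 0.218 and 0.524 CPM on day 2, 1.16 and 0.839 on day 3, 2.76 and 2.3 on day 6, 2.07 and 4.0 on untreated day 7, and 11.1 and 12.2 with Gdf11. The Nfix region (chr8:84712405-84712773) had 0.327 and 1.05 CPM on day 2, 0.711 and 1.68 on day 3, 2.11 and 1.76 on day 6, 1.9 and 1.2 on untreated day 7, and 9.7 and 9.8 with Gdf11. Both regions were low on day 2 and stood well apart with Gdf11. Ednra encodes the endothelin A receptor, and its region (chr8:77711740-77712086) had 0 and 0.524 CPM on day 2, 0.267 and 0.559 on day 3, 0.892 and 1.35 on day 6, 1.04 and 1.47 on untreated day 7, and 10.1 and 10.7 with Gdf11. Its log2 change was 2.92 ± 0.45.

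The region in Rbm33 (chr5:28351923-28352440), an RNA-binding protein gene, had the biggest fitted difference of the 10, from 0.864 and 0 CPM on untreated day 7 to 11.1 and 9.48 CPM with Gdf11, with values between 0.405 and 1.7 CPM on the earlier days. Its log2 change was 4.16 ± 0.55. The region chr13:84057053-84057339, in no gene and 164957 bp from Tmem161b, had 0.559 to 1.69 CPM in the 8 libraries without Gdf11 and 10.2 and 11.3 CPM with it. The regions in Uspl1 (chr5:149205280-149205685, a SUMO protease gene) and Pgpep1 (chr8:70656396-70656672, a peptidase gene) reached 2.53 and 2.59 CPM at most without Gdf11 and 11.4 and 12.5, and 10.1 and 10.9 CPM, with it.

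Of this set, the Pknox2 and Cttnbp2nl regions reached the highest values without Gdf11, 6.93 CPM on untreated day 7 and 4.8 CPM on day 3. The Pknox2 region (chr9:37143421-37143724), in a gene for a homeodomain cofactor of the TALE class, had 0.544 and 0.918 CPM on day 2, 1.42 and 0.979 on day 3, 5.76 and 3.65 on day 6, 6.13 and 6.93 on untreated day 7, and 9.79 and 10.0 with Gdf11. Of the 10 it had the smallest log2 change against untreated day 7, 0.45 ± 0.30. The Cttnbp2nl region (chr3:105055003-105055348, 1857 bp outside the gene) had 1.2 and 0.524 CPM on day 2, 4.8 and 4.06 on day 3, 2.84 and 1.08 on day 6, 1.64 and 3.47 on untreated day 7, and 10.5 and 9.91 with Gdf11. It peaked early among the untreated days, and its replicates differed on day 6 and day 7.

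**Figure D3:**
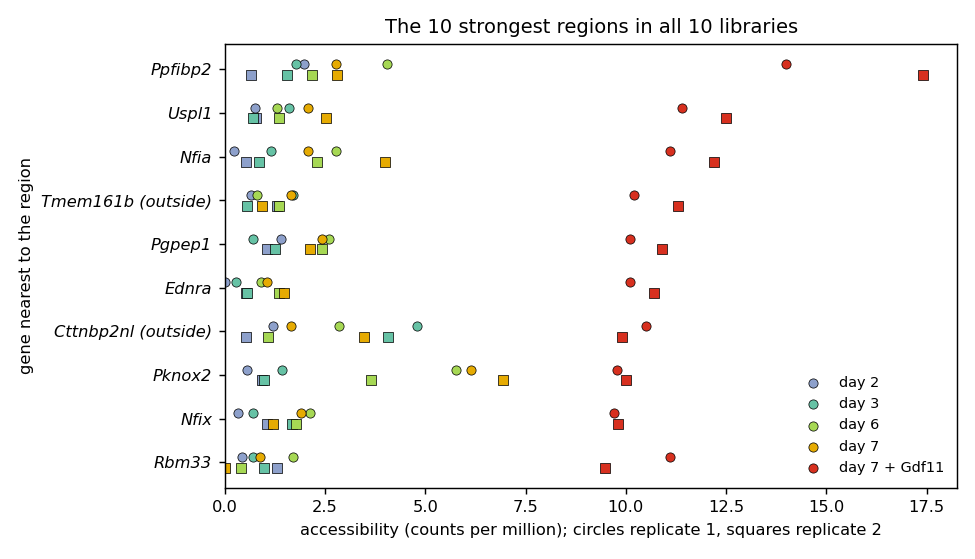
Accessibility of the 10 strongest regions in all 10 libraries, in CPM on a linear axis, with 1 row per nearest gene, circles for replicate 1 and squares for replicate 2; "outside" marks a region that lies in no protein-coding gene. The red Gdf11 points start at 9.48 CPM (Rbm33), while Pknox2 reaches 6.93 CPM without Gdf11.

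The rule kept out every region with a peak on an untreated day, so it capped the members on days 2, 3, 6 and 7 alike. It set no direction between these days, but all regions had no such cap. The shares of members called, their median changes and their shares of positive changes therefore cannot be read against those of all regions. From day 2 to day 3, 76 of the 2487 tested members rose (3.06%; 8.82% of all regions) and 4 fell (0.161%; 4.35% of all). From day 3 to day 6, 106 rose (4.26%; 9.19% of all) and 2 fell (0.0804%; 6.05% of all). From day 6 to untreated day 7, edgeR called 0 higher (0.974% of all) and 1 lower (0.207% of all). At an unadjusted p under 0.05, 43 were higher (1.73%; 5.93% of all) and 66 lower. DESeq2 called 0 and 0 there, beside 1400 and 142 of all 173175 regions, but set no adjusted p for 2474 members. It set none for 1098 and 1227 in the 2 earlier comparisons. Median counts per member were 2 to 9 in these libraries. The median log2 change of the members was 0.64 from day 2 to day 3 (0.07 over all regions), 0.60 from day 3 to day 6 (0.02) and −0.08 from day 6 to day 7 (−0.02). Members with a positive change made up 71.3%, 75.2% and 45.6%, against 53.4%, 50.9% and 48.4% of all regions. Without day 3 replicate 1 the first 2 medians were 0.29 and 0.83.

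**Figure D4:**
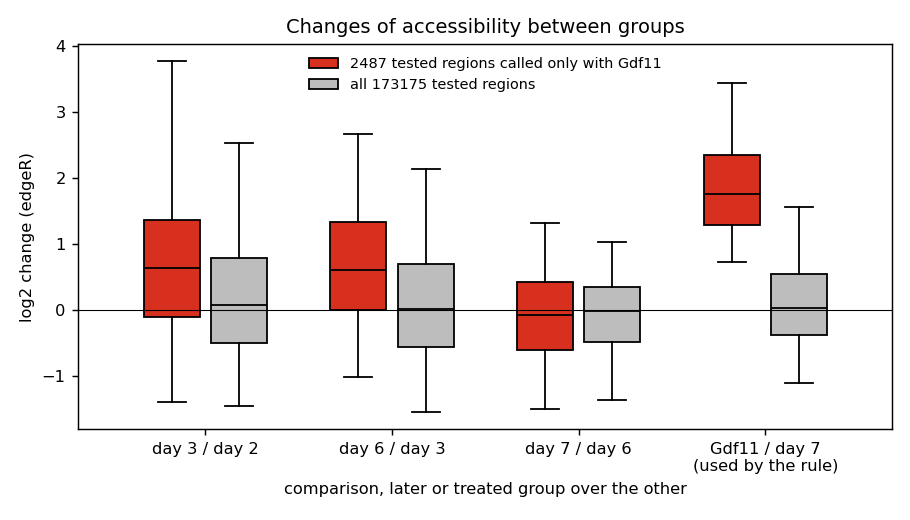
Log2 changes of the 2487 tested members (red) and of all 173175 tested regions (grey) in the 3 untreated comparisons and in the contrast that the rule used; boxes span the 25th to 75th percentile with the median as a line, and whiskers reach the 5th and 95th percentile. The median of the members lies at 0.64 and 0.60 in the first 2 comparisons, near 0 from day 6 to day 7, and at 1.76 with Gdf11. The rule capped the members on untreated days, so the red and grey boxes are not a like comparison.

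Among the members that rose most clearly from day 2 to day 3 were those near Cttnbp2nl and in Arl15. The Cttnbp2nl region rose from a mean of 0.861 to 4.43 CPM (log2 change 2.33 ± 0.48, edgeR adjusted p = 0.00027). The region in Arl15 (chr13:114065135-114065300), a small GTPase gene, had no count on day 2. Against a floor of 3 counts over both day 2 libraries it rose at least 8.05-fold by day 3 (edgeR adjusted p = 0.000611). Its groups overlapped later, with 1.83 and 1.51 CPM with Gdf11 against up to 1.54 without.

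From day 3 to day 6 the Pknox2 region rose by 1.96 ± 0.40 on the log2 scale (edgeR adjusted p = 0.000227). The Tmem132c region (chr5:127321656-127321965) rose from a mean of 0.858 to 3.51 CPM (2.28 ± 0.52, adjusted p = 0.00105), kept 3.46 and 4.93 CPM on untreated day 7, and stood at 9.79 and 9.15 CPM with Gdf11. The region 34563 bp from Tmem179 (chr12:112545723-112545899) had no count on day 2 or day 3 and 1.38 and 1.08 CPM on day 6, at least 7.54-fold over a floor of 3 counts on day 3 (adjusted p = 0.000671), then 3.2 and 3.12 CPM with Gdf11. These 3 regions rose from day 3 to day 6 and had their highest values with Gdf11.

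A few members fell between untreated days. BC052040 (chr2:115721997-115722164) went from a mean of 2.11 CPM on day 2 to 0.496 on day 3 (log2 change −1.97 ± 0.66, edgeR adjusted p = 0.0355), and the region near Olfr1505 (chr19:14123766-14123994) fell at least 3.67-fold, to no count on day 3. The regions nearest to Zpld1 (chr16:55555290-55555487) and Spaca1 (chr4:34226567-34226734) went from 1.32 and 1.23 CPM on day 3 to 0.122 and 0.216 on day 6 (adjusted p = 0.0118 and 0.0465). The 1 region that fell from day 6 to day 7 lay 23439 bp from Lrpprc (chr17:84814225-84814556). It had no count on day 2, 1.33 and 0.699 CPM on day 3, 1.13 and 0.945 on day 6, no count on untreated day 7, and 3.84 and 4.74 CPM with Gdf11. The fall was at least 6.61-fold (adjusted p = 0.0109), and the Gdf11 mean was at least 27.3-fold over the same floor on untreated day 7.

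Most of the regions lay far from gene starts. Protein-coding gene spans held 1168 of them (46.2%; 50.9% of all regions), 70 (2.77%) lay within 1 kb of a gene end against 11.1% of all regions, and 793 (31.4%) lay more than 50 kb from any protein-coding gene against 22.7%. A promoter window was touched by 1.11%, against 6.0% of all regions and 17.5% of the regions that both Gdf11 libraries shared with others. Regions called only in another group also tended away from gene ends, with 3.12% within 1 kb on day 3, 3.91% on untreated day 7, 6.66% on day 6 and 7.71% on day 2. They were not compared by a test. The median width was 195 bp, with a range from 100 to 703 bp. It was 184 bp over all regions, 174 to 194 bp for regions called only in another group, and 350 bp for regions that both Gdf11 libraries shared with others.

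**Figure D5:**
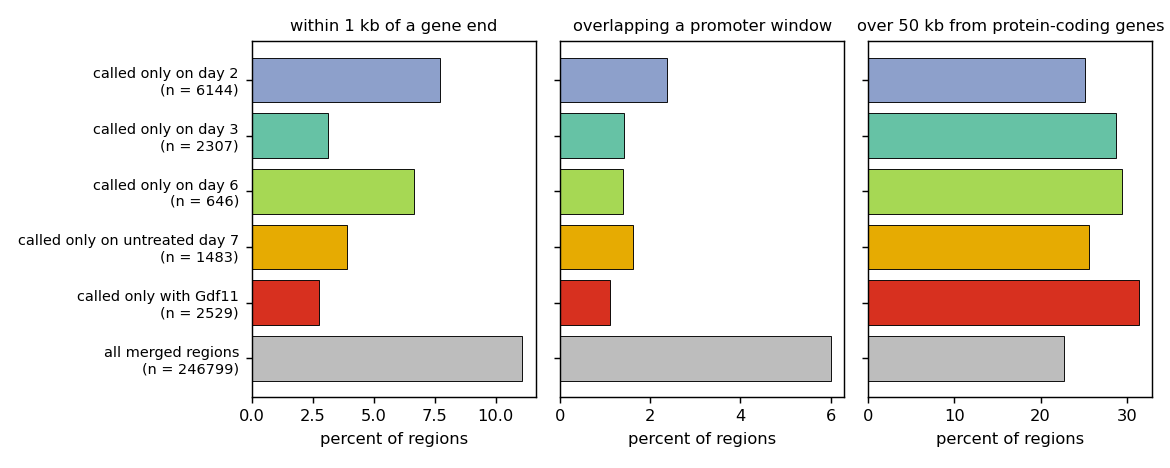
Percent of regions within 1 kb of a gene end, overlapping a promoter window, or over 50 kb from protein-coding genes, for regions called only in 1 group and for all merged regions; bars start at 0. Regions called only with Gdf11 have 2.77%, 1.11% and 31.4%, and all regions have 11.1%, 6.0% and 22.7%.

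The regions were spread over the genome. Their share of all regions per autosome ran from 0.63% on chromosome 11 to 1.24% on chromosome 3, and neighbours lay a median of 563 kb apart. Within 10 kb of another member lay 144 regions (5.69%), in 71 clusters, of which 2 had 3 members. One spanned 5751 bp in Crtc3 (chr7:80677137-80682887), a coactivator of CREB, and the other lay 98694 bp from Reg3b (chr6:78272045-78278633). Regions called only in both libraries of another group numbered 6144 on day 2, 2307 on day 3, 646 on day 6 and 1483 on untreated day 7.

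A region was assigned to the nearest protein-coding gene within 50 kb, which gave 1736 members to 1426 of 21896 genes (6.51%). Distance alone does not show which gene a region acts on. A single member was assigned to 1198 of the genes, and 54 genes had 3 or more. Palld, for an actin-binding scaffold protein, had the most, 6 of its 90 regions, with means of 1.33 to 3.63 CPM with Gdf11 and 0.259 to 1.18 CPM on untreated day 7. Psd3 (an exchange factor for Arf GTPases), Bach2 (a bZIP repressor), Rarb (retinoic acid receptor beta) and Ptprm (a receptor phosphatase in cell adhesion) had 5 each, of 86, 73, 79 and 74 regions, and were named among 7 genes with 5 members for their summed Gdf11 level. These genes span 348 to 688 kb, so that many regions of each were not members. The others with 5 were Gpc6 (5 of 152 regions), Zfp536 (5 of 73) and Crtc3, which spans 102 kb and had the highest share of the 7, 5 of 20 regions.

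In Bach2 the member at chr4:32365567-32365872 had 1.12 and 1.47 CPM on untreated day 7 and 6.22 and 4.42 with Gdf11 (log2 change 1.89 ± 0.51). In Rarb the member at chr14:16935151-16935329 had 0.259 and 0.267 CPM on untreated day 7 and 2.56 and 3.77 with Gdf11 (3.38 ± 0.81). Another in Rarb, chr14:16898281-16898417, had 1.73 and 2.13 CPM on untreated day 7 and 2.38 and 2.05 with Gdf11, so that the groups overlapped. Members of the same gene stood apart to different degrees. In Psd3 the member at chr8:67716295-67716590 had 0.777 and 0.8 CPM on untreated day 7 and 4.67 and 6.14 with Gdf11 (2.61 ± 0.55).

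Genes of the pathway itself held members in a share near that of all regions, or none. Of 23 TGF-beta ligands, receptors and antagonists, Gdf11 and its receptor genes among them, 0 had a member among 215 assigned regions. Of 26 Smads and Smad targets, 3 had one (4 members of 475 regions, 0.842%, against 0.911% of all assigned regions). Beside the Ltbp1 promoter region already described, which had a log2 change of 1.56 ± 0.47, a second Ltbp1 region (chr17:75112980-75113158) had 0.691 and 0.8 CPM on untreated day 7 and 2.38 and 2.15 with Gdf11. Smad7, the inhibitory Smad that Smad signalling itself induces, had a member 1700 bp away with 1.04 and 0.8 CPM on untreated day 7 and 3.84 and 2.69 with Gdf11 (1.64 ± 0.56). Ccn2, a matricellular growth factor gene, had the remaining 1. The TGF-beta co-receptor gene Tgfbr3 was not on these lists and was noticed after its values were seen. It had 4 members of 46 regions (8.7%), with means of 1.52 to 3.51 CPM with Gdf11 and 0.349 to 0.765 CPM on untreated day 7.

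Hox genes held 5 members, 3 of them at Hox groups 10 to 13 (3 of 75 regions, 4.0%), 1 at groups 5 to 9 (1.27%) and 1 at groups 1 to 4 (0.667%), beside 0.911% of all assigned regions. Their log2 changes against untreated day 7 ran from 0.57 to 1.18, with standard errors of 0.41 to 0.61. Of the 5, edgeR called 0 higher, beside 21.1% of the tested members and 1.09% of all tested regions. Hox proteins set position along the body axis, with high group numbers acting in the most posterior levels. The Hoxc13 region (chr15:102922026-102922188), with no peak call on any untreated day, had counts from day 2 on. It stood at 1.85 and 1.7 CPM on day 2, 2.93 and 3.36 on day 3, 1.95 and 1.22 on day 6, 1.81 and 0.8 on untreated day 7, and 3.48 and 3.12 with Gdf11, so that day 3 overlapped Gdf11. The Hoxc12 region (chr15:102939543-102939691) had 1.04 and 0.8 CPM on untreated day 7 and 1.92 and 2.58 with Gdf11, and the Hoxd12 region (chr2:74673817-74673980) had 1.47 and 0.933 and then 2.93 and 2.58. Both lay above all 8 libraries without Gdf11. The region 12076 bp from Hoxb9 (chr11:96259055-96259254) had 3.02 and 2.4 CPM on untreated day 7 and 5.31 and 3.77 with Gdf11, and the region 45293 bp from Hoxb1 (chr11:96413547-96413866) had 1.55 and 2.13 and then 4.12 and 5.06.

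The caudal epiblast list held 5 members at 4 genes (5 of 233 regions, 2.15%) and the Wnt target list 4 at 3 genes (4 of 414, 0.966%), beside 0.911% of all assigned regions. T (brachyury), on both lists, the mesoderm regulator of the tail bud, had 2, 13187 and 14544 bp away, with 1.56 to 2.93 CPM with Gdf11 and 0.533 to 1.2 CPM on untreated day 7. The Cdx4 member (chrX:103299068-103299233), near a gene for a caudal homeodomain factor, had 0.259 and 0.8 CPM on untreated day 7 and 1.83 and 1.62 with Gdf11. Wnt8a, Grsf1, Lef1, Fzd10 and, of the presomitic genes, Tcf15 had 1 each. Of 20 neural progenitor genes, Sox1 alone had a member (chr8:12430708-12430824), with 1.9 and 1.47 CPM on untreated day 7 and 1.92 and 1.94 with Gdf11. Its log2 change was 0.03 ± 0.55, so that this member differed in its peak call and hardly in its counts. Klf4 had 1 of the pluripotency list and Ets1 1 of the neural crest list.

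The list of EMT and matrix genes held 3 members of 409 regions (0.733%; 0.911% of all assigned regions), at Lamb1, Mmp2 and Tnc. The Mmp2 member (chr8:92797743-92797939), 29351 bp from this gelatinase gene, had 0 and 0.133 CPM on untreated day 7 and 1.92 and 3.02 with Gdf11. The member near tenascin C (Tnc, chr4:64083970-64084191) had 0.691 and 1.2 CPM and then 4.21 and 3.55 (1.91 ± 0.57). In Col3a1, for a fibrillar collagen and on the fibroblast list, the member chr1:45320953-45321140 had no count in either untreated day 7 library and 1.92 and 2.15 CPM with Gdf11, at least 13-fold over a floor of 3 counts on untreated day 7.

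Genes that mark embryonic fibroblasts, on which the stem cells had been kept, held 4 members, at Col3a1, Postn, Prrx1 and S100a4. They were at 4 of 14 genes (28.6%; 6.51% of all genes) and made up 4 of 172 regions (2.33%; 0.911% of all assigned regions). The summed accessibility of all assigned regions of this list was 353 and 370 CPM on day 2, 364 and 365 on untreated day 7 and 424 and 412 with Gdf11. All 14 genes of the list had counts. Its part in the result was not tested. The lists for endoderm and for lateral plate, heart and blood held 0 members of 191 and 202 regions, and their sums were 573 to 597 and 419 to 443 CPM on untreated day 7, and 554 to 605 and 488 to 497 CPM with Gdf11. The 18 genes of the caudal epiblast and neuromesodermal list, which the labelled cell type should have open, all had counts, with sums of 811 to 835 CPM on day 2, 1350 to 1400 on day 3, 1120 to 1150 on untreated day 7 and 940 to 979 with Gdf11. The housekeeping list held 0 members of 102 regions. With members at 0.911% of all assigned regions, lists this small can hold 0 without differing from all regions.

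The other regions of the same genes, which the rule had not kept, were tested. Genes with a member were not matched to all genes by number of regions or counts, and the rule had taken members out of their sums. Their shares are therefore not a like comparison with those of all genes. Summed per gene without the members, 42 of 1411 tested genes with a member rose with Gdf11 (2.98%, beside 1.73% of all 18975 genes tested) and 190 fell (13.5%, beside 11.4% of all genes), with a median log2 change of −0.06 against −0.10 over all genes. This split depended on the scaling: with library size in place of TMM factors 154 rose (10.9%, beside 4.38% of all genes) and 57 fell (4.04%, beside 3.08%).

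The genes whose other regions rose most clearly were Ldlrad4, Speer4c, Galnt3, Pramel13 and Sfi1, each with 1 member. Ldlrad4, which encodes an inhibitor of TGF-beta signalling that binds Smads, went from 66.1 and 62.3 CPM on untreated day 7 to 126 and 101 with Gdf11 over 46 other regions (log2 change 0.66 ± 0.10, edgeR adjusted p = 1.23e-05). Galnt3, a glycosyltransferase gene, went from 22.9 and 22.1 to 43.4 and 41.9 CPM (0.76 ± 0.14, adjusted p = 0.000206). Speer4c and Pramel13 belong to multicopy families whose reads the authors' counting could split, and Sfi1 reads map to many similar copies in the mouse genome, so that their values are uncertain. Those that fell most clearly were Prtg, Lrmda, Greb1l, Ptn and Rgs9. Prtg (protogenin), a surface protein of the early neural plate and mesoderm, went from 278 and 286 to 181 and 170 CPM (−0.85 ± 0.08, adjusted p = 4.91e-09). Ptn, for the growth factor pleiotrophin, went from 192 and 201 to 110 and 128 CPM (−0.88 ± 0.10, adjusted p = 7.94e-08). These 10 genes kept their direction with library size alone.

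At some of the genes described above the other regions fell, while the direction of the member had been set by the rule and is not compared with them. The other regions of Hoxb1 fell by 0.89 ± 0.13 on the log2 scale (edgeR adjusted p = 1.3e-05), those of Hoxb9 by 0.50 ± 0.11 (adjusted p = 0.00142), those of T by 0.71 ± 0.16 (adjusted p = 0.00217) and those of Pknox2 by 0.56 ± 0.08 (adjusted p = 2.18e-06), and each also fell with library size alone. The other regions of Col3a1 rose by 0.52 ± 0.14 (adjusted p = 0.0154; 0.67 with library size alone). For Ltbp1, Smad7, Nfia and Nfix the other regions passed the test under neither scaling (log2 changes −0.08, 0.09, 0.07 and −0.20).

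Library totals ran from 7150334 to 12335735 counts and peaks per library from 80504 to 118603, with 91192 and 108246 in the Gdf11 libraries. The factors that set the scale of each library ran from 0.905 (day 7 replicate 2) to 1.084 (Gdf11 replicate 1). In the contrast with Gdf11, replacing these factors by library size moved the median log2 change of all regions from 0.03 to 0.19 and that of the members from 1.76 to 1.92.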

How the data were processed

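ATAC-seq was read in 10 libraries, grouped by their titles. Raw counts per region were used as deposited; the counter is not given in the sources used here. The deposited peak lists hold, per peak, a ratio (the fold enrichment over the caller's background), the −log10 of q and a summit offset, called per library per the file contents. Build mm10 and, with no role given, MACS2 2.1.1.20160309, HOMER 4.10, bedtools, HISAT2 2.1.0 and SAMtools are named in the submitters' processing notes. The authors' deposited motif tables give percents of target and background sequences and a score, the natural log of an enrichment p-value.

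The count files carry no positions. Positions were taken from a merge of the 10 peak lists with chromosomes in character order, which has the 246799 regions of the count files. Each library had counts in every region that holds its own peaks, and all coordinates rest on this match. Genes and promoter windows came from RefSeq (GRCm38.p6, the same assembly as mm10), 21896 protein-coding genes given as spans. The members, the gene lists and the tests were chosen with earlier results of these data known.

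Regions were tested with edgeR 4.0.16 (quasi-likelihood, filterByExpr, TMM factors, 1 fit of all 10 libraries by group) under R 4.3.3, with Benjamini-Hochberg adjustment over all 173175 regions kept and a threshold of 0.05. Other regions of a gene were summed within 50 kb and fitted with the same factors. The procedure was first tested on simulated data. Levels are CPM, scaled by a library's total over all regions. Values after ± are standard errors of the edgeR fit and include the spread between libraries that it estimated. Floors cover counting error only. Named were the 10 regions with the highest lower Gdf11 level, up to 3 per gene list, all at Hox genes, the 5 genes with most members, regions at the edge of the rule, the 3 smallest p per untreated comparison and direction, and 5 genes per direction in the other regions; Ccn2 follows from its list, and some regions chosen this way are not reported here. Alternatives were library size alone, no filter, DESeq2 1.42.0, a replicate block, a 10 kb window, other peak thresholds and leaving out each library.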

Additional observations from a re-analysis of the deposited data

How the results depend on the processing

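The number of regions that met the rule was 2529 as deposited and 1201 when a Gdf11 peak needed a −log10 q of at least 5. It was 2330 with the 80000 strongest peaks of each library, of which 1483 were among the 2529, and 2928 when a peak had to cover at least 50% of a region. Leaving out each library gave 2567 to 16066, the highest without Gdf11 replicate 1 (16066) and then without Gdf11 replicate 2 (7886). With DESeq2 the members higher with Gdf11 numbered 84 in place of 525, those higher and lower from day 2 to day 3 14 and 0 in place of 76 and 4, those higher and lower from day 3 to day 6 29 and 1 in place of 106 and 2, and those lower from day 6 to day 7 0 in place of 1. DESeq2 set no adjusted p for 2288, 1098, 1227 and 2474 of the 2487 members in these 4 comparisons. Of all 173175 regions it called 568 higher with Gdf11, and 9022 higher and 4635 lower from day 2 to day 3. It called 10966 higher and 6082 lower from day 3 to day 6, and 142 lower from day 6 to day 7. Leaving out each library gave 156 to 241 members higher with Gdf11, 35 to 54 higher and 0 to 7 lower from day 2 to day 3, 46 to 69 higher and 1 to 2 lower from day 3 to day 6, and 0 to 1 higher and 1 lower from day 6 to day 7. Without the filter 2 were lower from day 6 to day 7. Genes with a member were not matched to all genes, so the shares of genes given next are not a like comparison. For genes with a member, the other regions rose in 154 (10.9%, beside 4.38% of all genes) and fell in 57 (4.04%, beside 3.08%) with library size alone. With a replicate block 69 rose (4.89%, beside 2.9% of all genes) and 270 fell (19.1%, beside 17.1%). With DESeq2 31 rose (2.2%, beside 0.78% of all genes) and 165 fell (11.7%, beside 8.72%). With a 10 kb window 20 of the genes with a member rose (1.8%, beside 1.25% of all genes) and 144 fell (13%, beside 9.75%). Leaving out each library gave 11 to 21 that rose and 87 to 267 that fell. The correlations of same-numbered deviations ran from −0.000744 to 0.0326 over 10 pairs of groups. Noise at low counts lowers such correlations, so this check cannot show whether replicate numbers pair the libraries. The replicate block moved the members higher with Gdf11 to 557. It moved all regions from 1883 higher and 4581 lower to 2198 higher and 5960 lower. Named members gave 73 changes, counted by member and comparison and mostly in the contrast that the rule used. Over the alternative settings 520 values of these changes kept their side of the threshold, 54 lost it, 6 gained it and 4 changed sign. Those 4 were regions with a change near 0, near Sox1 (chr8:12430708-12430824, −0.12 to 0.19 on leaving out each library; negative at −0.12 without day 7 replicate 2 and −0.07 without Gdf11 replicate 2) and in Rarb (chr14:16898281-16898417, −0.16 to 0.21; negative at −0.16 without day 7 replicate 1 and −0.03 without Gdf11 replicate 1). A fit without a library assumes that the lone library of the group varies like the others. The cause of these shifts was not tested. Median counts of 2 to 9 per member without Gdf11 limit what the untreated comparisons can call.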

Other observations

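Families were grouped after their members had been seen, so their counts describe and do not test. The nuclear factor I genes held 8 members among 202 assigned regions (3.96%, against 0.911% of all assigned regions), in 3 of 4 genes. Beside the Nfia and Nfix regions of the 10 strongest, a second Nfia region (chr4:97844948-97845174) had 0.605 and 0.267 CPM on untreated day 7 and 4.12 and 3.12 with Gdf11, and Nfib had 4 members. Sox5, which encodes a SoxD factor of neural and cartilage cells, had 4 members, of which chr6:144074867-144075215 stood at 0.95 and 0.8 CPM on untreated day 7 and 7.23 and 10.9 with Gdf11 (log2 change 3.19 ± 0.47). The other regions of Sox5 fell by 0.42 ± 0.07 on the log2 scale (edgeR adjusted p = 0.000175).

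Teneurins and latrophilins, which bind each other across cell contacts, had 14 members of 633 regions (2.21%), with means of 1.85 to 4.18 CPM with Gdf11 and 0.392 to 1.36 CPM on untreated day 7. Glypicans and the TGF-beta co-receptor gene Tgfbr3 had 11 of 415 (2.65%). The Tgfbr3 member chr5:107200288-107200509 had 0.432 and 0.267 CPM on untreated day 7 and 4.12 and 2.91 with Gdf11 (log2 change 3.08 ± 0.78). Of the other families counted, AP-1 and ATF factors had 6 of 252 (2.38%), 5 of them at Bach2 and 1 at Batf. No other of the 20 genes counted as AP-1 and ATF factors had a member. The retinoic acid pathway had 6 of 286 (2.1%), 5 of them at Rarb and 1 at Crabp1. SoxD, SoxB and SoxC factors had 5 of 349 (1.43%), collagens 3 of 312 (0.962%) and TALE cofactors 3 of 356 (0.843%). Many genes of these families are long, and their many regions give each more chances to hold a member.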
